A study of Mus musculus with 6 samples.

Results

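Fibronectin, the tenascins and the matricellular proteins were described in native cardiac fibroblasts (CFs) through 10 genes, chosen by symbol: *Fn1*, *Tnc*, *Tnxb*, *Postn*, *Thbs1*, *Thbs2*, *Thbs3*, *Sparc*, *Ccn1* and *Ccn2*. All 10 were present among the 49548 genes of the count table, and all 10 were among the 15789 genes that were tested because 2 or more libraries held 10 or more counts. The libraries were made from poly(A) RNA of native CFs of C57BL/6J mice aged 5 weeks, 3 from wild type (WT) and 3 from CharmeKO animals, in which a PolyA signal was inserted into the locus of the long non-coding RNA *Charme*. The study asked how the loss of *Charme* changes the resident CFs of the heart. Its methods describe a dissociation of the heart followed by depletion of hematopoietic lineages, whereas the sample labels list a growth medium and plates coated with fibronectin, so the handling of the cells before lysis is given in different ways. The sources do not say whether a library was made from 1 heart, and p-values therefore measure the spread between these libraries only.

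Fibronectin is secreted as a dimer and is assembled by cells, through integrins, into fibrils on which collagen and other matrix proteins are deposited. Matricellular proteins are secreted into the same matrix but contribute less to its structure than to signaling, since they bind integrins, proteases, collagens and growth factors and alter how cells attach to and sense the matrix. In the heart, several of them are prominent during development, are sparse in the resting adult tissue and return after injury, when fibroblasts are activated.

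The promoters of 7 of the 10 genes (*Tnc*, *Tnxb*, *Postn*, *Thbs2*, *Thbs3*, *Sparc* and *Ccn1*) had an entry in RefSeq on GRCm38.p6, and *Fn1*, *Thbs1* and *Ccn2* were the others. The 250 bases before the annotated start are printed for *Tnc* and *Postn*, whose patterns over the libraries, each centred on its own mean, were close to each other, and for *Ccn1*, the member with a higher mean in CharmeKO. They were searched on both strands for TATAAA (the TATA box), CATTCC (the core bound by TEAD factors), TGANTCA (the AP-1 site) and the CArG box bound by SRF, and the matches are in capitals. No match overlapped another.
Tnc, chr4:64047016-64047265, minus strand: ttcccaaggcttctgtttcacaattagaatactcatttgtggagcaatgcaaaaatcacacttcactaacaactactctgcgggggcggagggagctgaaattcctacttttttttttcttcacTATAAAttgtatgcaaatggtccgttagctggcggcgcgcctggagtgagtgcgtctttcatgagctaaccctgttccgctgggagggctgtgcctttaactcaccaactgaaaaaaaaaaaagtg
Postn, chr3:54360857-54361106, plus strand: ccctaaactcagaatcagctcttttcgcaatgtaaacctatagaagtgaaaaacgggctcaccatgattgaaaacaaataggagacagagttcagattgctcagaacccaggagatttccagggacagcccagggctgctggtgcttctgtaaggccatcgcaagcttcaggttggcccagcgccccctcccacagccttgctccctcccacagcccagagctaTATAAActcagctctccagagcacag
Ccn1, chr3:145649986-145650235, minus strand: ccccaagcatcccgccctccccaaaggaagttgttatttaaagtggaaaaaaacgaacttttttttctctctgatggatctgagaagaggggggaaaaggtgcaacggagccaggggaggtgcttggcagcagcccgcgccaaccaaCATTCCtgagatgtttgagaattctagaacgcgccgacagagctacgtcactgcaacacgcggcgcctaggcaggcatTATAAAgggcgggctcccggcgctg
Counted from the annotated start, the TATA box letters lay from −26 to −21 in *Postn*, from −25 to −20 in *Ccn1* and from −126 to −121 in *Tnc*. *Ccn1* also held the TEAD core from −103 to −98. Among the other promoters, *Thbs2* held the TATA box letters and *Tnxb* the AP-1 site. Of all 32851 promoter windows of the same length, 12.4% held the TATA box letters, 12.6% the TEAD core, 6.75% the AP-1 site and 1.47% the CArG box.

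The libraries held between 9595701 and 42101393 counts, with WT replicate 3 the shallowest. *Charme* itself had 26, 15 and 4 counts in WT replicates 1, 2 and 3 and 7, 0 and 0 counts in CharmeKO replicates 1, 2 and 3. The summed fibroblast markers lay between 28183 and 36385 CPM (counts scaled to the library total by the TMM method) in WT and between 28852 and 32709 CPM in CharmeKO. *Gsn* alone took 17330 to 26439 CPM. Of these 8 markers, 4 were lower and 4 higher in CharmeKO, and 0 passed the test. DESeq2 called *Mmp2* lower (adjusted p = 0.00227), against 2.55% of all genes called. Erythroid markers summed to between 26762 and 39193 CPM in WT and between 24402 and 31731 CPM in CharmeKO. For endothelial markers the sums were 6038 to 7264 CPM in WT and 6073 to 7282 CPM in CharmeKO. The 8 cardiomyocyte markers summed to between 251 and 325 CPM in WT and between 372 and 573 CPM in CharmeKO. *Myh6* and *Tnni3* passed the test in the higher direction, against 0.418% of all tested genes. The 5 tested epicardial markers summed to between 56.9 and 71.4 CPM in WT and between 34.0 and 40.6 CPM in CharmeKO. *Wt1* passed the test in the lower direction, against 0.412% of all tested genes. WT replicate 1 and CharmeKO replicates 1 and 2 carried *Xist*, whereas WT replicates 2 and 3 and CharmeKO replicate 3 carried Y-linked transcripts, so the groups were mixed unevenly in sex, and CharmeKO replicate 1 also held 5.06 CPM of Y-linked transcripts. WT replicate 2 stood apart from the other WT libraries in *Tnc*, *Postn*, *Thbs1*, *Thbs2* and *Fn1*, and the results of these genes are given with and without it. The part of these differences in the results was not tested, apart from the values given beside them.

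Compared per length of exon, the members covered a wide range of levels. *Sparc*, a collagen-binding glycoprotein, was the highest at 1288 ± 265 CPM per kb (SD, n = 6) and ranked 18 among all tested genes. *Ccn1*, a secreted integrin ligand, followed at 530 ± 63.9 CPM per kb, and *Tnxb*, which encodes tenascin-X, at 306 ± 78.9 CPM per kb. The libraries of these genes did not overlap with those of the next in order. *Ccn2* at 119, *Fn1* at 103, *Thbs1* at 73.7, *Thbs2* at 47.4, *Postn* at 24.2 and *Thbs3* at 17.6 CPM per kb came next, and the range over the libraries of each of these overlapped with that of its neighbour in this order. Within libraries, *Fn1* was nevertheless above *Thbs1* in 6 of 6, and every value of *Ccn2* and of *Fn1* lay above every value of *Thbs2*, *Postn* and *Thbs3*. *Tnc*, which encodes tenascin-C, was the lowest at 2.49 ± 0.967 CPM per kb, below every library of *Thbs3*, and ranked 8854. With the length of the longest transcript instead of all exons, *Fn1* was 4th and *Ccn2* 5th.

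**Figure D1:**
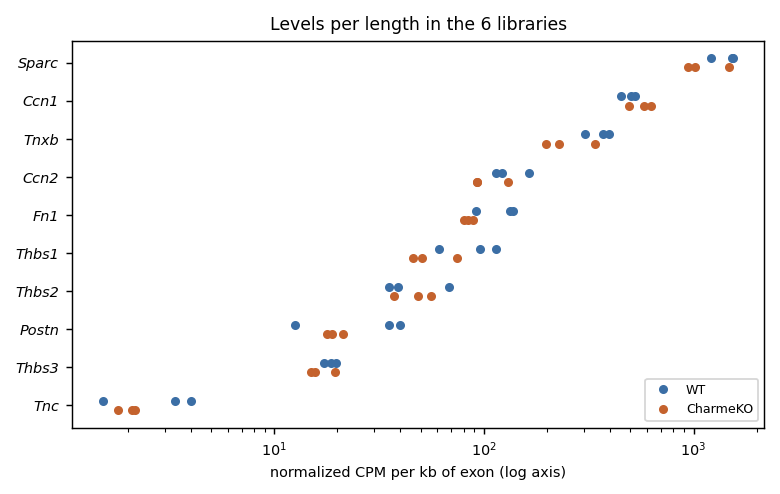
Normalized CPM per kb of exon (log axis) of the 10 genes in the 3 WT and 3 CharmeKO libraries, with 1 point for each library. *Sparc* lies highest, at 1288 CPM per kb on average, and *Tnc* lowest, at 2.49.

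Between the groups, 9 of the 10 genes had a lower fitted level in CharmeKO and *Ccn1* had a higher one, but none passed the test. A fold change below 0 was found in 48.8% of all tested genes. The median log2 fold change of the members was −0.41, whereas that over all tested genes was 0.0097. In the quasi-likelihood test of edgeR, 0 members reached a Benjamini-Hochberg adjusted p under 0.05, and 0.83% of all tested genes did. At an unadjusted p under 0.05, *Fn1*, *Tnxb* and *Thbs1* were lower and 0 members were higher, against 6.87% of all genes lower at that level. DESeq2 called *Fn1* alone, against 2.55% of all genes called. Without WT replicate 2, edgeR called *Fn1*, *Tnc*, *Postn* and *Thbs1*, all lower in CharmeKO, against 1.4% of all genes called lower. That library was singled out by its low values in these same genes, so these calls are no separate support for a difference. With any other library left out, 0 members were called. Without a gene filter edgeR called *Fn1*, *Postn* and *Thbs1*, again lower, against 1.81% of all genes. In bulk RNA, fewer cells of a type and less RNA per cell cannot be told apart.

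**Figure D2:**
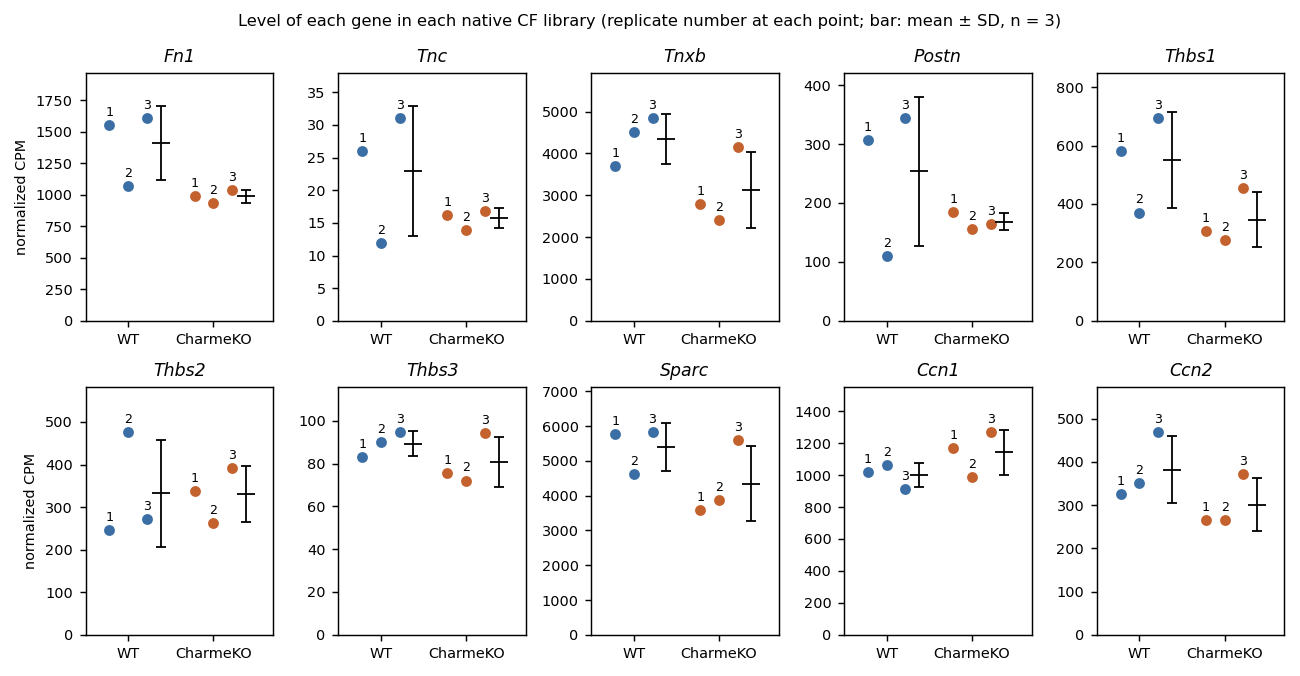
Normalized CPM of each gene by library, with the replicate number at each point and the mean ± SD of 3 libraries as bars, and each vertical axis from 0. Only in *Fn1* do the 3 CharmeKO libraries all lie below the 3 WT libraries, and WT replicate 2 lies lowest of WT for *Fn1*, *Tnc*, *Postn*, *Thbs1* and *Sparc*.

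*Fn1*, the fibronectin gene, was measured at 1548, 1070 and 1608 CPM in WT replicates 1, 2 and 3 and at 986, 935 and 1040 CPM in CharmeKO replicates 1, 2 and 3. Every CharmeKO library lay below every WT library, which was true of no other member in the lower direction, and of 8.59% of all tested genes. The closest pair was WT replicate 2 and CharmeKO replicate 3. The log2 fold change was −0.51 (SE 0.16, 95% interval −0.87 to −0.15), a mean in CharmeKO 0.700 times that in WT. It did not pass in edgeR (Benjamini-Hochberg adjusted p = 0.233), whereas DESeq2 gave −0.52 with an adjusted p of 0.0381. Without WT replicate 2 the edgeR value was −0.68 with an adjusted p of 0.0149. With each library left out in turn, it lay between −0.68 and −0.41, the latter without WT replicate 3 (edgeR adjusted p = 0.573). The study, whose own comparison used DESeq2, counted *Fn1* among its most significant genes in native CFs. It also measured *Fn1* there by real-time PCR, which the counts used here do not include.

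Of the tenascins, which modulate the attachment of cells to fibronectin, *Tnc* and *Tnxb* showed different patterns over the libraries. *Tnc*, a form that is induced in injured myocardium, was measured at 26.0, 11.9 and 31.1 CPM in WT and at 16.3, 13.9 and 16.8 CPM in CharmeKO, from 289 to 1107 counts per library. WT replicates 1 and 3 lay above all CharmeKO libraries and WT replicate 2 below them all, so the groups overlapped. CharmeKO differed from WT by −0.53 on the log2 scale (SE 0.27, adjusted p = 0.450), and by −0.86 (adjusted p = 0.0129) without WT replicate 2, but by −0.28 (adjusted p = 0.818) without WT replicate 3.

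*Tnxb*, the form of loose connective tissue that binds collagen fibrils, was abundant, with 3691, 4511 and 4850 CPM in WT and 2793, 2418 and 4153 CPM in CharmeKO. Here WT replicate 2 was not low, at 1.06 times the mean of the other WT libraries, and the overlap came from CharmeKO replicate 3, which exceeded WT replicate 1. Its log2 fold change was −0.48 (SE 0.20, unadjusted p = 0.0358, adjusted p = 0.351). With the trends of each library with GC content and gene length removed it was −0.17, and with 1 library left out it lay between −0.74 and −0.32.

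*Postn*, which encodes periostin, a marker of activated fibroblasts that promotes collagen cross-linking, was measured at 307, 110 and 344 CPM in WT and at 185, 156 and 165 CPM in CharmeKO. As for *Tnc*, WT replicates 1 and 3 lay above all CharmeKO libraries and WT replicate 2 below them. The coefficient of variation was 49.7% in WT and 8.92% in CharmeKO. In edgeR the log2 fold change was −0.59 (SE 0.31, adjusted p = 0.465), and −0.95 (adjusted p = 0.00204) without WT replicate 2, the largest size among the members in that fit. Without WT replicate 3 it was −0.31 (adjusted p = 0.833).

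The thrombospondins did not share one pattern. *Thbs1*, a trimeric form that activates latent TGFβ and restrains angiogenesis, was measured at 582, 371 and 695 CPM in WT and at 308, 278 and 453 CPM in CharmeKO. CharmeKO replicates 1 and 2 lay below all WT libraries, and CharmeKO replicate 3 lay above WT replicate 2. The log2 fold change of −0.66 (SE 0.23, 95% interval −1.17 to −0.15) was the largest in size among the 10 genes in the fit to all libraries, with an unadjusted p of 0.0154 and an adjusted p of 0.268. DESeq2 gave an adjusted p of 0.0640, and edgeR without WT replicate 2 gave −0.88 with an adjusted p of 0.0326.

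*Thbs2*, a trimeric form that is involved in collagen fibril assembly, was measured at 247, 477 and 273 CPM in WT and at 339, 262 and 393 CPM in CharmeKO. WT replicate 2 was here the highest of the 6 libraries, at 1.83 times the mean of the other WT libraries, whereas it was at 0.581 times that mean for *Thbs1*. The log2 fold change was −0.0055 (95% interval −0.52 to 0.51, adjusted p = 0.996), and 0.35 (95% interval −0.0097 to 0.71, adjusted p = 0.344) without WT replicate 2.

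*Thbs3*, a pentameric form, varied little, with 83.1, 90.2 and 94.8 CPM in WT and 75.8, 72.1 and 94.1 CPM in CharmeKO. Its log2 fold change was −0.15 (95% interval −0.42 to 0.13, adjusted p = 0.686), and between −0.27 and −0.069 with 1 library left out. CharmeKO replicate 3 lay within the WT range and the other CharmeKO libraries lay below it.

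*Sparc*, which binds collagen and takes part in its processing outside the cell, was measured at 5783, 4611 and 5838 CPM in WT and at 3583, 3866 and 5590 CPM in CharmeKO. CharmeKO replicates 1 and 2 lay below all WT libraries, whereas CharmeKO replicate 3 lay within the WT range. CharmeKO differed by −0.32 on the log2 scale (95% interval −0.73 to 0.093, adjusted p = 0.516), and by −0.54 to −0.19 with 1 library left out.

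The CCN proteins are secreted regulators that bind integrins and heparan sulfate, and their genes respond to serum, stretch and the transcriptional regulators YAP and SRF. *Ccn1* was measured at 1018, 1064 and 915 CPM in WT and at 1167, 989.5 and 1271 CPM in CharmeKO. CharmeKO replicates 1 and 3 lay above all WT libraries and replicate 2 lay within their range. This gave a log2 fold change of 0.19 (95% interval −0.11 to 0.50, adjusted p = 0.608), and of 0.11 to 0.29 with 1 library left out.

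*Ccn2*, formerly called connective tissue growth factor, was measured at 326, 351 and 469 CPM in WT and at 266, 266 and 372 CPM in CharmeKO. CharmeKO replicates 1 and 2 lay below all WT libraries and replicate 3 lay between WT replicates 2 and 3. The log2 fold change was −0.34 (95% interval −0.73 to 0.046, adjusted p = 0.453), with −0.17 without WT replicate 3 and −0.52 without CharmeKO replicate 3.

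**Figure D3:**
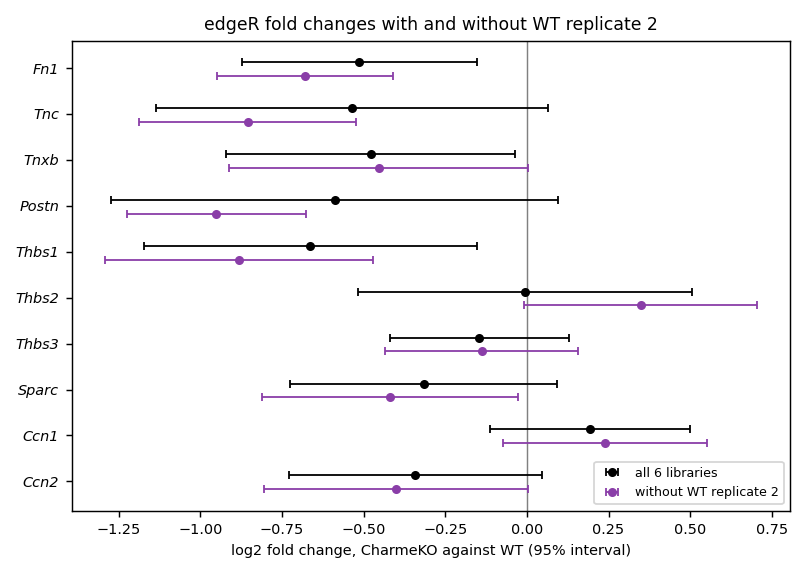
log2 fold changes of CharmeKO against WT from edgeR with 95% intervals, from all 6 libraries (black) and without WT replicate 2 (purple). Without that library, which was singled out by its values in these genes, the values of *Fn1*, *Tnc*, *Postn* and *Thbs1* are −0.68, −0.86, −0.95 and −0.88. That of *Thbs2* is 0.35.

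The balance of related genes was compared within each library, where the library total cancels. The log2 ratio of *Ccn1* to *Ccn2* was 1.64, 1.60 and 0.96 in WT and 2.14, 1.90 and 1.77 in CharmeKO. All CharmeKO libraries lay above all WT libraries, with means of 1.94 ± 0.18 and 1.40 ± 0.38 (SD, n = 3) and a difference of 0.53 (p = 0.1 by an exact two-sided permutation test, the lowest value possible with 3 against 3 libraries). Over the fits that left out 1 library the difference ranged from 0.31 to 0.65.

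The log2 ratio of *Thbs1* to *Thbs2* was 1.24, −0.36 and 1.35 in WT and −0.14, 0.088 and 0.21 in CharmeKO. WT replicates 1 and 3 lay far above the CharmeKO libraries and WT replicate 2 below them, and the difference of −0.69 was within the WT spread (p = 0.4 by the same exact test). It was −1.24 without WT replicate 2, −0.44 without WT replicate 1 and −0.38 without WT replicate 3.

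The log2 ratio of *Tnc* to *Tnxb* was −7.15, −8.57 and −7.29 in WT and −7.42, −7.44 and −7.95 in CharmeKO. The groups overlapped (difference 0.064, p = 1 by the same exact test), and the sign turned to −0.39 without WT replicate 2. The 3 ratios were the only ones computed, and none could reach a p under 0.05 in this design, so no adjustment was made.

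**Figure D4:**
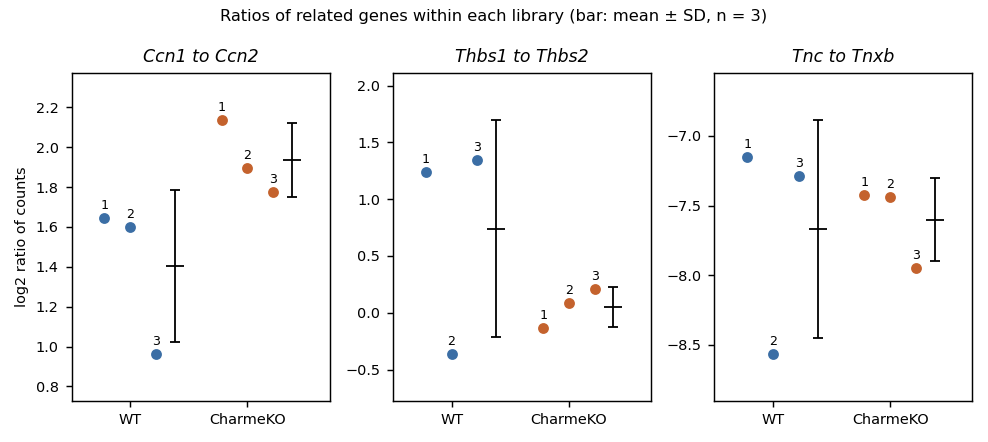
log2 ratios of counts within each library for *Ccn1* to *Ccn2*, *Thbs1* to *Thbs2* and *Tnc* to *Tnxb*, with the replicate number at each point and the mean ± SD of 3 libraries as bars. The CharmeKO libraries lie above the WT libraries for *Ccn1* to *Ccn2* only, and WT replicate 2 lies lowest of all libraries in the other ratios.

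The variation among replicates followed the same libraries in several members. WT replicate 2 was the lowest WT library in 5 of the 10 genes (*Fn1*, *Tnc*, *Postn*, *Thbs1* and *Sparc*), as it was in 37.1% of all tested genes. Its level relative to the mean of the other WT libraries was 0.337 for *Postn*, 0.417 for *Tnc*, 0.581 for *Thbs1*, 0.678 for *Fn1* and 0.794 for *Sparc*. CharmeKO replicate 3 was the highest CharmeKO library in 9 of the 10 genes, *Postn* being the exception, and in 35.3% of all tested genes. The 10 genes together took between 12667 and 15119 CPM in WT and 9719, 9255 and 13547 CPM in CharmeKO, with replicate 3 again the highest.

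**Figure D5:**
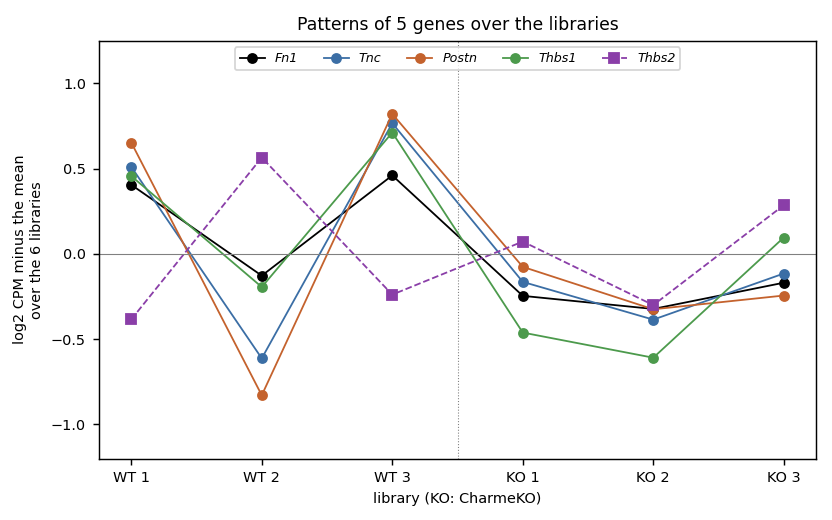
log2 CPM of *Fn1*, *Tnc*, *Postn*, *Thbs1* and *Thbs2* in each library, minus the mean of the gene over the 6 libraries, with lines that only join the points of a gene. *Fn1*, *Tnc*, *Postn* and *Thbs1* are low in WT replicate 2 and high in WT replicates 1 and 3, whereas *Thbs2* is highest in WT replicate 2.

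Across the 6 libraries, the pattern of *Tnc* was most like those of *Pi15* and *Postn*, at a root mean square difference of 0.127 and 0.128 on the log2 scale, among 6943 genes with a mean of at least 20 CPM. *Postn* itself, for which *Tnc* fell below this minimum, was closest to *Vcan* (0.176), which encodes the proteoglycan versican, then to *Ncapd2* and *Lmnb2*. *Fn1* was closest to *Papln* (0.0628), an extracellular matrix protein, to *Arl4c* and to *Mfap5*, a component of microfibrils. *Thbs1* was closest to *Duox1*, *Mest* and *Metrnl*, and *Thbs2* to *Icosl*, *Junb* and *Rasd1*, where *Junb* is an immediate early gene. *Tnxb* was closest to *Erf*, *Cables1* and *Rhbdf1*, *Sparc* to *Ccnd3*, *Tmem132a* and *Mrgprf*, and *Thbs3* to *Crtc2*, *Nr2f6* and *Slc39a1*. *Ccn1* was closest to *Ndufs3*, *Cox14* and *Tnfsf9*, and *Ccn2* to *Ssc5d*, *Fignl2* and *P4ha2*, of which *P4ha2* encodes a collagen prolyl hydroxylase subunit. These are descriptions over 6 libraries that differ in depth and group, and the part of either in the patterns was not tested.

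Within the libraries that carried *Xist*, 8 of the 10 genes were lower in CharmeKO, and within those with Y-linked transcripts 6 were. The difference of log2 CPM was −0.69 and −0.34 for *Fn1*, in that order, and −0.99 and −0.16 for *Thbs1*. It was −0.64 and 0.11 for *Sparc*, which was thus lower in CharmeKO in one set of libraries and not in the other. For *Ccn1* it was 0.078 and 0.37. Each set held 3 libraries, 1 of them alone in its group, and these differences carry no test. With the split as a term in the edgeR fit, 0 members passed, against 0.652% of all genes, and *Fn1* had a log2 fold change of −0.53 (adjusted p = 0.291).

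Relatives of these genes were measured next, from a list of 18 that held other tenascins, thrombospondins, CCN and SPARC family genes and the matrix proteins *Tgfbi*, *Spp1* and *Vtn*. Of the 13 tested, 9 were lower and 4 higher in CharmeKO around a median of −0.23 on the log2 scale, and 0 passed edgeR or DESeq2, with 1 lower and 2 higher at an unadjusted p under 0.05. At that level, 6.87% of all tested genes were lower and 12.8% differed in either direction. *Sparcl1*, which encodes hevin and is the closest relative of *Sparc*, was measured at 1860, 2136 and 1925 CPM in WT and at 2269, 2350 and 2229 CPM in CharmeKO (log2 fold change 0.21, adjusted p = 0.531). Its CharmeKO libraries all lay above its WT libraries, unlike those of *Sparc*, as did those of 9.58% of all tested genes. *Fstl1*, a secreted glycoprotein of the SPARC family, was measured at 2148, 1148 and 1965 CPM in WT and at 1194, 1005 and 1489 CPM in CharmeKO, and WT replicate 2 was again the lowest of WT. Its log2 fold change was −0.51 (adjusted p = 0.374), with an adjusted p of 0.0365 without WT replicate 2, against 1.4% of all genes called lower in that fit. *Smoc2*, a calcium-binding matricellular protein, had a log2 fold change of 0.31 (adjusted p = 0.327), with no overlap between the groups.

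Of 16 receptor genes for these proteins, 15 were tested, 9 were lower and 6 higher, and the median log2 fold change was −0.053. By edgeR 0 passed, with 2 lower and 1 higher at an unadjusted p under 0.05, against 6.87% of all genes lower and 12.8% in either direction. DESeq2 called 3, against 2.55% of all genes, and these 3 were named after their values were seen. They were *Itga5* (adjusted p = 0.0188), the integrin subunit of the main fibronectin receptor, *Lrp1* (0.00283), an endocytic receptor for *Thbs1* protein and many other ligands, and *Cd36* (0.0420), a thrombospondin receptor that is also abundant in endothelial cells. *Itga5* was measured at 253, 306 and 316 CPM in WT and at 153, 165 and 246 CPM in CharmeKO, without overlap. *Lrp1* was measured at 4136, 4953 and 4615 CPM in WT and at 2860, 3039 and 3548 CPM in CharmeKO, also without overlap. *Cd36* was higher in CharmeKO, with 1410, 1401 and 1109 CPM in WT and 1595, 2699 and 1725 CPM in CharmeKO, again without overlap. Of the 15 tested receptor genes, 2 lay lower without overlap and 2 higher, against 8.59% and 9.58% of all tested genes. *Itgb1*, a beta subunit of several fibronectin-binding integrins, had a log2 fold change of 0.073 (adjusted p = 0.873).

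A list of 29 genes, all tested, held the regulators YAP, TAZ, TEAD, SRF and MRTF themselves and genes known as their targets beside *Ccn1* and *Ccn2*, and 20 were lower and 9 higher in CharmeKO, around a median of −0.10 on the log2 scale. By edgeR 0 passed, with 3 lower and 2 higher at an unadjusted p under 0.05, against 6.87% of all genes lower and 12.8% in either direction. DESeq2 called *Arhgef17* alone (adjusted p = 0.0371, lower), named after its values were seen, against 2.55% of all genes called. The most abundant were *Axl*, a receptor tyrosine kinase (log2 fold change −0.24, adjusted p = 0.485), *Ccdc80*, a matrix protein (−0.071, adjusted p = 0.882), and *Wwtr1*, which encodes the YAP paralog TAZ (0.042, adjusted p = 0.917).

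Of 14 genes of fibroblast activation, 10 were lower and 4 higher, and 2 fell in edgeR, against 0.412% of all genes called lower. They were *Ltbp2* (log2 fold change −1.46, adjusted p = 0.0452), which encodes a latent TGFβ binding protein of microfibrils, and *Cilp* (−0.94, adjusted p = 0.0437), a matrix protein that restrains TGFβ signaling. DESeq2 also called *Ltbp2* (adjusted p = 0.0411) and *Cilp* (7.5e-05), against 2.55% of all genes called. Both stayed called in edgeR without WT replicate 2 (adjusted p = 0.00916 and 0.000462), against 1.4% of all genes called lower. The edgeR calls of both were lost without WT replicate 1 or 3 and without CharmeKO replicate 1 or 2. That of *Cilp* was also lost without CharmeKO replicate 3. Both were also lost with GC and length trends removed, that of *Cilp* with the term for *Xist* and Y-linked transcripts, and that of *Ltbp2* with a filter of 10 counts in 5 libraries. The most abundant genes of the list, the fibrillar collagens *Col3a1* (log2 fold change −0.61, adjusted p = 0.347), *Col1a1* (−0.77, adjusted p = 0.189) and *Col5a1* (−1.01, adjusted p = 0.126), did not pass in edgeR with all libraries. DESeq2 called *Col1a1* as well (adjusted p = 0.0102). Without WT replicate 2, edgeR called *Col1a1* (−0.93, adjusted p = 0.0423) and *Col5a1* (−1.18, adjusted p = 0.0274). The summed level of this list was 16496, 11343 and 18040 CPM in WT and 8819, 6948 and 13121 CPM in CharmeKO, with WT replicate 2 the lowest of WT and CharmeKO replicate 3 the highest of CharmeKO, as for *Fn1* and *Thbs1*.

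Since *Ccn1* is also an immediate early gene, which dissociation of a tissue can induce, other such genes were read beside it. With the heat shock genes *Hspa1a* and *Hspa1b*, the list held 24 genes. They were split evenly, 12 lower and 12 higher around a log2 median of 0.0017, and their sum was 41937, 60978 and 44477 CPM in WT and 51265, 47057 and 53315 CPM in CharmeKO. WT replicate 2, the highest library for *Thbs2*, was also the highest in this sum, whose part in the members' values was not tested. Its most abundant genes, the transcription factors *Egr1*, *Junb* and *Fosb*, had log2 fold changes of −0.052, −0.019 and −0.14, with adjusted p between 0.783 and 0.978. Only the 2 heat shock genes of the list passed edgeR, both higher, against 0.418% of all genes called higher. *Hspa1a* (log2 fold change 1.30, adjusted p = 0.0116) and *Hspa1b* (1.59, adjusted p = 0.0176) encode near-identical inducible heat shock proteins, between which reads can be split. DESeq2 also called *Hspa1a* (adjusted p = 2.8e-09) and *Hspa1b* (5.4e-09), against 2.55% of all genes called. Both stayed called in edgeR without WT replicate 2 (adjusted p = 0.00278 and 0.000905), against 0.844% of all genes called higher. Both edgeR calls were lost without WT replicate 3 and without CharmeKO replicate 2, and that of *Hspa1b* also without CharmeKO replicate 1 or 3.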

How the data were processed

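mRNA was sequenced from 3 WT and 3 CharmeKO samples of native CFs in directional libraries. Reads that passed a quality filter were aligned by the authors with STAR, whose version is not given in the sources used here, and counted reads on an Ensembl annotation to which *Charme* was added, in the "reverse" strand configuration. The deposited values are raw counts per gene, without normalization or filter, and the authors' own comparison used DESeq2. Opposite-strand genes overlap *Ccn2* over 23.2% of its exon length and the other members over at most 6.59%, and no same-strand gene overlaps them.

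Groups were taken from the sample titles. Genes for which 2 or more libraries held 10 or more counts were normalized by TMM and tested with edgeR 4.0.16 (quasi-likelihood, R 4.3.3, Benjamini-Hochberg threshold 0.05). The biological coefficient of variation over all genes was 20.2%. Standard errors were derived from the F statistics. Ratios of 2 genes were taken within libraries from the counts as they are and compared by exact permutation, and 0.5 counts were added only in an alternative. The test was checked on simulated data with the same dispersion for every gene and with larger changes than those of the members. That check does not say whether changes of the members' size would be found. No library duplicated another.

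The members and lists were chosen with earlier results of these data known. The genes named are the members, the genes of each list that passed edgeR, the 3 tested genes of highest mean CPM in each list, and the 3 genes of most alike pattern for each member, and genes called by DESeq2 alone were added after their values were seen. Exon lengths and GC content came from GENCODE on GRCm38 and promoters from RefSeq on GRCm38.p6, whereas the labels name GRCm39 for the counts, so coordinates are given only for the RefSeq promoters, on their own build. Alternatives were DESeq2 1.42.0, other scalings and gene filters, removal of GC and length trends, a term for *Xist* and Y-linked transcripts, the replicate number as a block, and each library left out in turn. Figures were drawn with matplotlib 3.10.9.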

Additional observations from a re-analysis of the deposited data

How the results depend on the processing

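The median log2 fold change of the members stayed below 0 under all 15 alternatives, between −0.55 and −0.27 with 1 library left out and between −0.42 and −0.30 in the others, and 144 of 150 values of single members kept their direction. The 6 that turned were all of *Thbs2*, at 0.025 with GC and length trends removed, 0.17 with the *Xist* and Y term, 0.0090 with upper-quartile scaling, 0.044 with the replicate block, 0.14 without CharmeKO replicate 2 and 0.35 without WT replicate 2, and its lowest value with 1 library left out was −0.18. The ratio of *Tnc* to *Tnxb* turned without WT replicate 2, CharmeKO replicate 1 or CharmeKO replicate 2, with differences between −0.39 and 0.32 with 1 library left out. The number of members called, 0 in the edgeR fit to all libraries, was 1 with DESeq2, 3 without a gene filter (*Fn1*, *Postn* and *Thbs1*), and 0 to 4 with 1 library left out, the 4 without WT replicate 2. Over all genes, 131 were called, 394 with DESeq2, 699 without a gene filter and 61 to 349 with 1 library left out. In the 5 lists of relatives, receptors and pathways, 4 genes were called, 9 with DESeq2, 12 without a gene filter, 2 with GC and length trends removed and 0 to 8 with 1 library left out. The cause of these changes was not tested.

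Deviations from the group means correlated weakly between libraries of the same replicate number, at 0.137, 0.00727 and 0.106 for numbers 1, 2 and 3. WT replicates 1 and 3 each correlated best with the CharmeKO replicate of their own number. WT replicate 2 correlated best with CharmeKO replicate 3, at 0.030. Whether the numbers mark pairs was not tested. With the replicate block, 1 member was called (*Thbs1*, adjusted p = 0.0328), with 302 genes in all (1.91%) and 7 in the lists. With 3 libraries a group and WT replicate 2 at 0.337 to 1.83 times the mean of the other WT libraries among the members, the spread was wide in some genes, and the 95% interval of *Postn* ran from −1.27 to 0.096.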

Other observations

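*Igfbp3*, which encodes a secreted binding protein of insulin-like growth factors and belongs to the list of YAP-TEAD genes, was measured at 198, 315 and 168 CPM in WT and at 357, 344 and 278 CPM in CharmeKO. It was chosen after its values were seen. WT replicate 2, which was low in *Tnc* and *Postn*, was the highest WT library here and lay above CharmeKO replicate 3. The log2 fold change was 0.52 in edgeR (adjusted p = 0.322). It was 0.83 (adjusted p = 0.0120) without WT replicate 2, against 0.844% of all genes called higher in that fit. That library was singled out by its values in the members, so this call is no separate support for a difference.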
